A study of Mus musculus with 18 samples.

Results

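CD103 dendritic cells (DCs) that had taken up fluorescent epithelial material, sorted as GFP-plus, were compared with DCs of the same gate that had not, sorted as GFP-minus. The comparison rests on 6 of the 18 Affymetrix mouse gene arrays of the series, chosen by sample title: 3 arrays of GFP-plus CD103 DCs and 3 of GFP-minus CD103 DCs. Both groups were Live CD45+ CD11c+ MHCII+ CD103+ CD24+ cells from the small intestine of male and female mice of the strain VDTR. In these mice the villin promoter drives a diphtheria toxin receptor joined to green fluorescent protein (GFP) in the gut epithelium. All mice, those behind the GFP-minus group included, were given diphtheria toxin into the peritoneum (2 ng per kg), and tissue was taken after 4 hours, so no array shows cells of an untreated gut. The other 12 arrays hold GFP-plus and GFP-minus cells, 3 arrays each, of macrophage gates with CD103, CD11b and CD64 or with CD11b and CD64, from mice of the same strain and treatment. The labels give no ages and do not say whether replicates are separate animals. They give an n value of 4 for every array, beside 3 arrays a group, without saying whether it counts mice pooled for an array, experiments or something else. The p-values therefore measure only the spread between these arrays, which may be technical.

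CD103 DCs of the gut lamina propria take up dying cells and food or microbial antigen, migrate through lymph to the draining node, and there show antigen to T cells. Most CD103 DCs without CD11b belong to the type 1 conventional lineage (cDC1), which is specialised in passing antigen from dead cells to CD8 T cells. During maturation DCs switch on actin regulators, chemokines, costimulatory and inhibitory ligands and NF-kB feedback genes, while uptake and proliferation decline. This programme runs both in response to microbes and in its absence, where it serves tolerance.

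Values are log2 and relative to the median of each probe over the 18 arrays, so a value of 0 is a gene's own middle array and not a low level. Levels cannot be set between genes. A gene was called at a Benjamini-Hochberg adjusted p under 0.05 in limma, a linear model fitted to all genes and all 18 arrays. Changes are GFP-plus minus GFP-minus with the standard error (SE) of the fit, 3 arrays a group. The SE pools a gene's spread within all 6 groups, macrophage gates included. It can therefore differ from the spread of the DC arrays.

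The arrays carried the genes of the labelled cell type. Xcr1, the chemokine receptor of cDC1, lay between 3.49 and 4.68 on GFP-plus arrays and between 4.49 and 5.23 on GFP-minus arrays, against a median of -0.37 over 12 macrophage arrays. Itgae, which encodes CD103, lay at 4.93 to 5.46 on GFP-plus arrays and 5.28 to 5.56 on GFP-minus arrays, and the growth factor receptor gene Flt3 lay at 3.86 to 4.25 on GFP-plus arrays and 3.73 to 4.09 on GFP-minus arrays. The macrophage genes Csf1r, C1qa, Adgre1, Fcgr1 and Mertk were below 0 on all 6 DC arrays, with Csf1r at -6.25 to -5.87 on GFP-plus DC arrays and -5.68 to -5.23 on GFP-minus DC arrays. Batf3 and Zbtb46, further genes of this lineage, had DC arrays that overlapped macrophage arrays. None of the 8 measured genes of the sort marker list passed the test between GFP-plus and GFP-minus DCs. This does not show equal levels: 2 of the 8 were lower in GFP-plus DCs without overlap, and none was higher without overlap. Over all genes, 11.5% were lower and 8.66% higher without overlap, so the count is no result about these markers. Cd24a, which encodes CD24, was at 3.87, 4.19 and 3.86 in GFP-plus DCs, against 4.57, 4.51 and 4.64 in GFP-minus DCs. The SE of its change (-0.60 ± 0.58) also takes in the macrophage arrays, where Cd24a ran from -1.86 to 1.65.

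The bulk of the array moved little, and what moved was skewed downwards. Of 22180 genes, 351 were called, which is 1.58%: 72 higher (0.325%) and 279 lower (1.26%) in GFP-plus DCs. The median change over all genes was -0.02 and 47.1% of genes were above 0. Changes of at least 2-fold numbered 235 upwards and 2092 downwards, and those of at least 4-fold 38 and 269. Of the genes called, 41 changed by less than 2-fold, and 27 of these were higher. GFP-plus arrays also spread more widely than GFP-minus arrays: 14.5%, 6.91% and 11.3% of genes lay below -1 on GFP-plus replicates 1 to 3, against 6.23%, 2.96% and 3.17% on GFP-minus replicates 1 to 3. The part of that spread in the falls was not tested. Without GFP-plus replicates 1 and 3, 70 genes were higher and 46 lower, with replicate 2 assumed to vary like the other groups. Under quantile normalization 24 were higher and 24 lower. The count of 351 was 163, 711 and 222 without GFP-plus replicate 1, 2 or 3, and 118 and 122 without GFP-minus replicate 2 or 3. Among the genes called under each of 14 alternatives of arrays, scaling, weights, prior variance or block at the same threshold were Defa24, Gclc, Fscn1, Il12b, Lrrc32, Cd63 and Pfkfb3 upwards and Dapk2, Igkv6-14, Trit1, Haspin, Zfp367, Pik3cg, Cdc45 and Hmmr downwards. All GFP-plus arrays lay above all GFP-minus arrays in 8.66% of all genes and below them in 11.5%, which is 1920 and 2546 genes; under quantile normalization this balance turned, to 2179 and 1936. Of the genes called, 13 had several probes, and all probes of each ran in 1 direction.

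**Figure D1:**
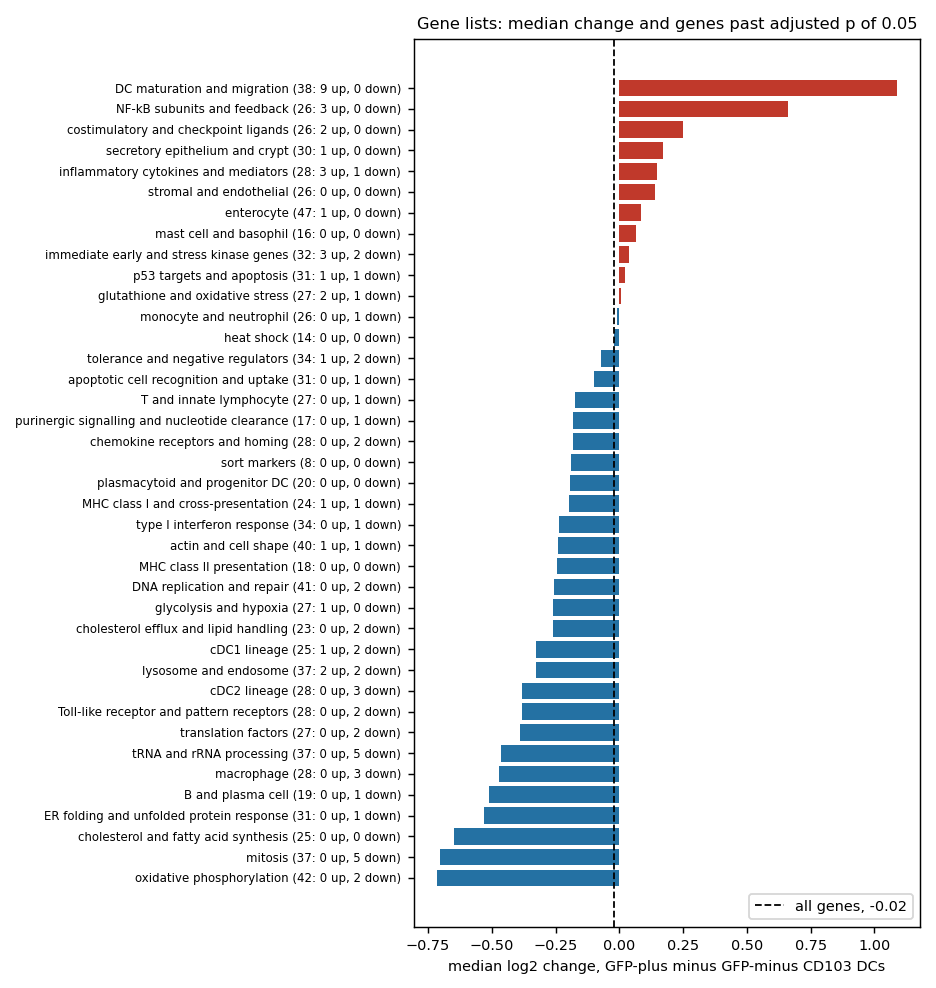
Median log2 change (GFP-plus minus GFP-minus CD103 DCs) of the gene lists with at least 5 measured genes, with the number of genes and of calls in each direction beside each name. The dashed line is the median of all genes, -0.02. DC maturation and migration stands at the top with 1.09, mitosis and oxidative phosphorylation at the bottom with -0.70 and -0.72.

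Genes of maturing and migrating DCs had the highest median of the lists. This list and those below were chosen with earlier results of these data known. Their shares beside those of all genes are therefore a description and not a test. Of 38 measured genes of that list, 9 were called higher and none lower, beside 0.325% of all genes called higher, and the list's median change was 1.09, against -0.02 over all genes. Fscn1, the actin bundler that shapes the dendrites of mature DCs, was at 6.26, 5.88 and 5.65 in GFP-plus DCs, against 3.15, 1.99 and 1.97 in GFP-minus DCs. Il12b, the shared subunit gene of the interleukin-12 and interleukin-23 cytokines, was at 4.02, 4.04 and 3.82 in GFP-plus DCs, against 0.80, 0.93 and 1.17 in GFP-minus DCs. The 2 sets of arrays stand well apart for both genes, and Il12b was especially even within each set. The rises were 3.56 ± 0.32 for Fscn1 (adjusted p = 7.00e-05) and 2.99 ± 0.35 for Il12b (adjusted p = 0.00073). Ccl17, a chemokine that attracts T cells with the receptor CCR4, was at 4.41, 4.15 and 3.65 in GFP-plus DCs, against 0.22, 1.51 and 1.92 in GFP-minus DCs, a rise of 2.85 ± 0.47. The nucleotide hydrolase gene Nudt17 rose by 3.26 ± 0.30, the annexin gene Anxa3 by 2.31 ± 0.49, Zmynd15 by 1.94 ± 0.44 and the stress sensor Gadd45b by 1.30 ± 0.25. In bulk samples a larger share of mature cells and more RNA per cell cannot be told apart.

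Several textbook members of the programme did not pass. Ccl22, the sister chemokine of Ccl17, was at 3.72, 3.80 and 3.55 in GFP-plus DCs, against 1.83, 1.05 and 0.99 in GFP-minus DCs (change 2.40 ± 0.64, adjusted p = 0.0813). Those arrays had an SD of 0.13 in GFP-plus and 0.47 in GFP-minus DCs, while the SE also takes in the macrophage arrays. Cd40, the receptor through which T cells license DCs, changed by 2.10 ± 0.56 (adjusted p = 0.081), and Cd80, a ligand for CD28, by 1.58 ± 0.47 (adjusted p = 0.114). Ccr7, the receptor that guides DCs to the lymph node, was at 0.42, 2.70 and 2.25 in GFP-plus DCs, against -1.59, 0.98 and 0.56 in GFP-minus DCs. Its GFP-plus and GFP-minus arrays overlapped, and replicate 1 was the lowest of both groups. Under each replicate number the GFP-plus value was the higher one, but the fit did not treat numbers as pairs. The Ccr7 change of 1.80 ± 0.86 had an adjusted p of 0.337.

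Of 26 measured genes for NF-kB subunits and the inhibitors that NF-kB induces, 3 were called higher, beside 0.325% of all genes, and none lower. The median was 0.66, with 18 genes above 0 and 8 below. Relb, the subunit that DCs need to mature, was at 1.72, 1.07 and 0.49 in GFP-plus DCs, against -0.19, -0.16 and -0.28 in GFP-minus DCs, a rise of 1.30 ± 0.30 (adjusted p = 0.0444). Tnfaip3, the gene of the ubiquitin-editing brake A20, rose by 1.79 ± 0.38. Sqstm1, which encodes the autophagy receptor p62, rose by 1.00 ± 0.17. Bcl3 (1.40 ± 0.38, adjusted p = 0.0894) and Rel (0.77 ± 0.21, adjusted p = 0.0912) had all GFP-plus arrays above all GFP-minus arrays without passing.

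Among cytokines and ligands, the calls ran both ways. Of 28 inflammatory cytokines and mediators, 3 were called higher and 1 lower, which is 14.3% beside 1.58% of all genes. Tnf rose by 1.71 ± 0.35 and the scavenger chemokine Cxcl16 by 0.76 ± 0.15 beside Il12b. Il1a, an alarm cytokine, was at -3.95, -3.56 and -3.52 in GFP-plus DCs, against -2.27, -0.50 and -1.62 in GFP-minus DCs, a change of -2.22 ± 0.36 (adjusted p = 0.00959). Of 26 costimulatory and checkpoint ligands, 2 were called, both higher, which is 7.69% beside 0.325% of all genes called higher. Cd274, which encodes the inhibitory ligand PD-L1, was at 0.49, 0.42 and 0.47 in GFP-plus DCs, against -0.43, -1.39 and -1.72 in GFP-minus DCs (1.64 ± 0.31). Pvr, a ligand shared by the activating receptor DNAM-1 and the inhibitory receptor TIGIT, rose by 1.81 ± 0.41.

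Genes of transforming growth factor beta (TGF-beta) handling split. Lrrc32, whose product GARP holds latent TGF-beta at the cell surface, was at 2.58, 2.58 and 3.27 in GFP-plus DCs, against -0.18, 0.42 and 0.58 in GFP-minus DCs. The rise was 2.53 ± 0.31 (adjusted p = 0.00101). Tgfbr2, the ligand-binding TGF-beta receptor, was at -2.75, -2.37 and -2.89 in GFP-plus DCs, against -0.51, -1.06 and -1.42 in GFP-minus DCs, a change of -1.68 ± 0.36. Il1r2, the decoy receptor for interleukin-1, changed by -3.78 ± 0.81. Its GFP-plus values of -2.15, -5.77 and -5.79 stood against -1.72, -0.24 and -0.40 in GFP-minus DCs, so the replicates numbered 1 nearly met. Of the 34 genes for tolerance and negative regulation, these 2 fell and Cd274 rose, which is 8.82% beside 1.58% of all genes. The median of -0.07 turned positive under quantile normalization or scaling to equal interquartile ranges (up to 0.22). Aldh1a2, the retinoic acid enzyme of gut DCs (1.20 ± 0.33, adjusted p = 0.0894), and Itgb8, an integrin that frees TGF-beta, did not pass. Itgb8 was at 0.68, 0.88 and 4.42 in GFP-plus DCs, against -0.15, -0.04 and 0.10 in GFP-minus DCs, so 1 array carried most of its mean.

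**Figure D2:**
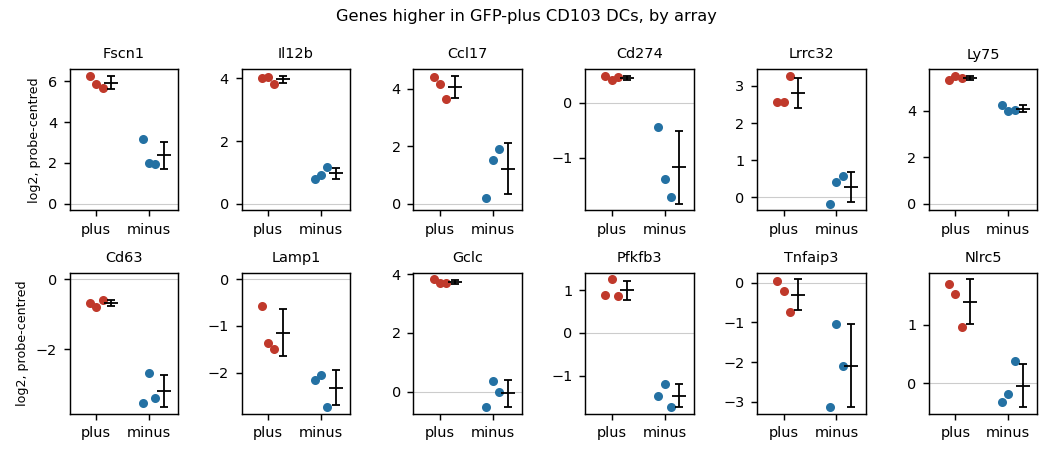
Log2 values relative to the probe median (vertical axes) of 12 genes called higher, on each of 3 GFP-plus (plus, left) and 3 GFP-minus (minus, right) arrays of CD103 DCs; bars give mean and SD. For each of the 12, the GFP-plus arrays lie above the GFP-minus arrays, with Gclc at 3.71 to 3.83 against -0.54 to 0.36.

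Uptake and endosomal genes gave calls in both directions. Ly75 encodes DEC-205, an endocytic receptor that binds dying cells. It was at 5.30, 5.50 and 5.42 in GFP-plus DCs, against 4.26, 4.00 and 4.02 in GFP-minus DCs, a rise of 1.31 ± 0.13 (adjusted p = 0.000116) that turned negative, at -0.57, under scaling to equal interquartile ranges. Cd63, a tetraspanin of late endosomes, was at -0.67, -0.78 and -0.59 in GFP-plus DCs, against -3.52, -2.67 and -3.40 in GFP-minus DCs. Its rise of 2.52 ± 0.18 had one of the smallest adjusted p-values of the comparison, 1.02e-05. Lamp1, a lysosomal membrane protein gene, rose by 1.18 ± 0.22 and Laptm4b, another, by 1.74 ± 0.32. Lipa, the acid lipase that breaks down engulfed cholesteryl esters, changed by -1.63 ± 0.32, and Rab7b, a late endosomal GTPase gene, by -2.42 ± 0.52. The lysosome list of 37 genes therefore had 2 calls each way, which is 10.8% beside 1.58% of all genes. Its median of -0.33 changed sign under quantile normalization or interquartile scaling (up to 0.11). Of 31 genes for recognising and engulfing apoptotic cells, only the complement gene C1qa was called, and it was lower (3.23%, beside 1.26% of all genes).

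Of 24 genes for class I and cross-presentation 2 were called, 1 in each direction, which is 8.33% beside 1.58% of all genes. Nlrc5, the transactivator of MHC class I genes, was at 1.70, 1.53 and 0.97 in GFP-plus DCs, against -0.31, -0.19 and 0.39 in GFP-minus DCs (1.44 ± 0.33, adjusted p = 0.0476). Cybb, the oxidase subunit gene that slows antigen degradation in DC phagosomes, was at -5.38, -5.53 and -5.65 in GFP-plus DCs, against -3.48, -2.34 and -3.10 in GFP-minus DCs (-2.54 ± 0.30). None of 18 class II genes was called in limma, with 1 higher and 4 lower at an unadjusted p under 0.05, where 5.37% of all genes were higher and 10% lower.

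Metabolic rises were few and large. Gclc, the rate-limiting enzyme of glutathione synthesis, was at 3.83, 3.71 and 3.71 in GFP-plus DCs, against -0.54, 0.36 and -0.02 in GFP-minus DCs, a rise of 3.81 ± 0.37 or 14-fold (adjusted p = 0.000139). Pfkfb3, which makes the activator of glycolytic phosphofructokinase, was at 0.87, 1.25 and 0.86 in GFP-plus DCs, against -1.46, -1.18 and -1.73 in GFP-minus DCs, a rise of 2.45 ± 0.31. Few other members of their lists were called. Gclc and Sqstm1 rose and Pgd, of the pentose phosphate pathway, changed by -2.20 ± 0.47 among 27 redox genes (median 0.01). These calls were 11.1% of that list, beside 1.58% of all genes. Pfkfb3 was the only call (3.7%) among 27 genes of glycolysis and hypoxia, whose median was -0.26. The muscle enolase gene Eno3 rose by 2.58 ± 0.37, the cyclic AMP enzyme gene Adcy6 by 2.77 ± 0.36 and the growth kinase gene Mtor by 1.47 ± 0.33. Of 40 genes for actin and cell shape, Fscn1 was called higher and Cdc42 lower (5%), the median was -0.24 and 26 were below 0. At an unadjusted p under 0.05, 3 of them were higher and 9 lower, beside 5.37% and 10% of all genes. Cdc42, the GTPase that drives macropinocytosis in immature DCs, was at -0.36, -0.33 and -0.35 in GFP-plus DCs, against 0.08, 0.22 and 0.37 in GFP-minus DCs, a small and even fall (-0.57 ± 0.12). Outside that list, Myo1g, a membrane myosin gene of blood cells, rose by 1.87 ± 0.27 and the GTPase gene Rhoc by 2.31 ± 0.43.

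Immediate early genes did not move as a block, with 3 of 32 called higher, 2 lower and a median of 0.04. The calls were 15.6% of that list, beside 1.58% of all genes. The orphan receptor gene Nr4a3 rose by 1.62 ± 0.38 and the cell cycle inhibitor Cdkn1a by 1.54 ± 0.35, while Fos changed by -1.40 ± 0.25 and the growth brake Btg2 by -0.74 ± 0.17. For Cdkn1a the GFP-plus arrays (-1.10, -1.24 and -2.57) and the GFP-minus arrays (-3.67, -3.28 and -2.57) met at their edges.

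Calls among genes of cell division were all lower in GFP-plus DCs. Of 37 mitosis genes, 5 were called lower and none higher, beside 1.26% of all genes called lower. The median was -0.70, and 35 of the 37 were below 0. Haspin, the kinase that marks histone H3 at centromeres, was at 0.20, 0.26 and 0.27 in GFP-plus DCs, against 4.09, 2.95 and 2.82 in GFP-minus DCs (-3.04 ± 0.27, adjusted p = 7.00e-05). Kif11, the motor that separates the spindle poles, was at 0.38, 0.42 and -0.81 in GFP-plus DCs, against 1.60, 1.64 and 2.10 in GFP-minus DCs (-1.79 ± 0.36). The spindle genes Nusap1 (-2.67 ± 0.42), Cenpe (-1.69 ± 0.35) and Bub1 (-1.20 ± 0.28) made up the rest. Hmmr, a spindle protein gene outside the list, was at -0.36, -0.20 and -0.19 in GFP-plus DCs, against 1.28, 0.92 and 1.27 in GFP-minus DCs (-1.41 ± 0.16). Top2a (-2.25 ± 0.54, adjusted p = 0.0573), Cdk1 (-2.49 ± 0.61, adjusted p = 0.0606) and Aurka (-1.29 ± 0.32, adjusted p = 0.0653) came close to the threshold. Of 41 replication and repair genes, Cdc45, part of the replicative helicase, changed by -2.27 ± 0.29 and the repressor gene E2f8 by -1.42 ± 0.24, with no call upwards and a median of -0.26. Zfp367, a zinc finger gene, changed by -2.74 ± 0.25.

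The promoters of mitotic genes are known for the cell cycle homology region, the element TTTGAA, through which such genes are repressed outside division. Promoters of Haspin, Kif11 and Hmmr, the called mitotic genes that hold it, follow from RefSeq (GRCm38.p6), each running from 250 bases before to 50 after the start site, with the element or its reverse complement in capitals. Haspin lies at chr11:73138245-73138544 on the minus strand, Kif11 at chr19:37376132-37376431 on the plus strand and Hmmr at chr11:40733388-40733687 on the minus strand.
Haspin: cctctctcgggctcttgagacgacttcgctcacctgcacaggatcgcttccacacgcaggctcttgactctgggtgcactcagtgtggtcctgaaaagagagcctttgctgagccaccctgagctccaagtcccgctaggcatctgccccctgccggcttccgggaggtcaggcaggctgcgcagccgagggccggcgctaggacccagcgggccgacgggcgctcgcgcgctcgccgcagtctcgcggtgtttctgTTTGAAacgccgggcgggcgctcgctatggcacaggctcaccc
Kif11: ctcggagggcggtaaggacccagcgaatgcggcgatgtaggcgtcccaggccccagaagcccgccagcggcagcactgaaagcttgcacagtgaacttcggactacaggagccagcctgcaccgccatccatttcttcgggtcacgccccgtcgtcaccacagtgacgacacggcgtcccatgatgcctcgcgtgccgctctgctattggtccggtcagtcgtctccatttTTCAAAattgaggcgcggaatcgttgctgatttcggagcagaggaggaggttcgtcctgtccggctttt
Hmmr: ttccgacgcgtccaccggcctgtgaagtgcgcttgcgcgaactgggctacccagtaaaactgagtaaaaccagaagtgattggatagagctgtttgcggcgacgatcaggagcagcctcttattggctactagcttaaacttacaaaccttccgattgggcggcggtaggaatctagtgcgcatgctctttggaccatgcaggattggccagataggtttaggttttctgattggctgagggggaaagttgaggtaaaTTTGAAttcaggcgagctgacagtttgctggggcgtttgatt
On either strand, TTTGAA occurred in 25 of 33 mitosis genes with a promoter entry, against 20.2% of 27025 gene symbols. It occurred in 18.8% of the promoters of all 234 genes called lower that had an entry. Nusap1, Cenpe and Bub1 had no match in this window.

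**Figure D3:**
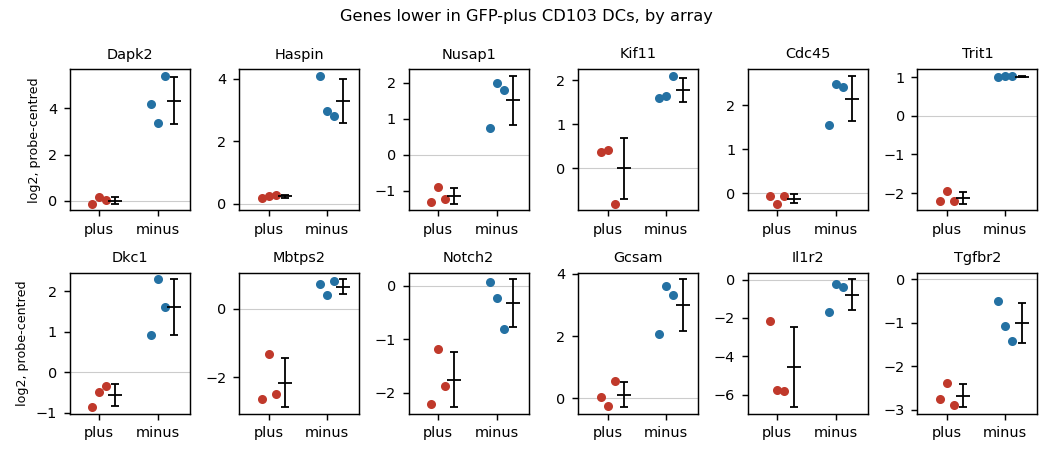
Log2 values relative to the probe median (vertical axes) of 12 genes called lower, on each of 3 GFP-plus (plus, left) and 3 GFP-minus (minus, right) arrays of CD103 DCs; bars give mean and SD. GFP-plus arrays lie below GFP-minus arrays for each of the 12, with Trit1 at -2.22 to -1.95 against 0.99 to 1.04.

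Calls among genes for RNA modification and ribosome production were all lower. Of 37 genes for transfer RNA and ribosomal RNA processing, 5 were called lower and none higher, beside 1.26% of all genes called lower, with a median of -0.47. Trit1, which isopentenylates transfer RNAs, was at -2.21, -1.95 and -2.22 in GFP-plus DCs, against 0.99, 1.02 and 1.04 in GFP-minus DCs. The arrays of each group nearly coincided, and the change was -3.14 ± 0.27 (adjusted p = 4.81e-05). The pseudouridine synthase genes Dkc1 and Pus3 changed by -2.17 ± 0.47 and -1.12 ± 0.16. Nsun2, a transfer RNA methyltransferase gene, changed by -1.80 ± 0.38 and Polr1a, the largest subunit of RNA polymerase I, by -2.27 ± 0.38. Of 27 translation factors, Eef1d (-2.92 ± 0.56) and Eif4b (-0.86 ± 0.19) were called, both lower, which is 7.41%. Among 71 mitochondrial ribosomal protein genes 2 were called lower, among them Mrpl3 with a change of -2.97 ± 0.53. That share of 2.82% stands nearer to the 1.26% of all genes, and the list's median was -0.66. The 67 cytosolic ribosomal protein genes had no call and a median of -0.15, and paralogs or pseudogenes can share their probe sequence.

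Respiration and sterol genes had low medians. Of 42 oxidative phosphorylation genes 39 were below 0 and the median was -0.72. The complex I genes Ndufb10 (-1.53 ± 0.31) and Ndufa10 (-1.64 ± 0.38) were called, 4.76% of the list beside 1.26% of all genes called lower. No gene of 25 for cholesterol and fatty acid synthesis was called in limma, while 9 were lower and 1 higher at an unadjusted p under 0.05, beside 10% and 5.37% of all genes, with a median of -0.65. Hmgcs1 was at -2.22, 0.38 and -2.02 in GFP-plus DCs, against 0.39, 1.66 and 1.06 in GFP-minus DCs (-2.33 ± 0.71, adjusted p = 0.12), and Fdps changed by -1.91 ± 0.52 (adjusted p = 0.0894). GFP-plus replicate 2 was the highest of its group for both. The proteases that activate the sterol-sensing SREBP factors did pass: Mbtps2 changed by -2.79 ± 0.48 and Mbtps1 by -2.06 ± 0.39. Ggps1, an enzyme gene of isoprenoid synthesis, changed by -2.64 ± 0.55, and Acsl5, an acyl-CoA synthetase gene, by -3.00 ± 0.60. Alg5, for the glucose donor of N-glycans, changed by -3.16 ± 0.44 and was the only call of 31 endoplasmic reticulum genes (median -0.53).

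Calls among lineage and sensing genes were mostly lower. Genes called were 12% of the cDC1 list and 10.7% of the type 2 list, beside 1.58% of all genes. The pattern receptors and the chemokine receptor and homing genes each had 7.14%. In the cDC1 list of 25, Gcsam, a germinal centre signalling gene also found in cDC1, was at 0.02, -0.25 and 0.54 in GFP-plus DCs, against 2.06, 3.62 and 3.32 in GFP-minus DCs (-2.90 ± 0.31). Rab7b fell with it, and Ly75 rose. Clnk, an adaptor gene of cDC1, was at -0.16, -0.01 and -0.02 in GFP-plus DCs, against 0.43, 2.78 and 4.44 in GFP-minus DCs, and missed the threshold (adjusted p = 0.0581). Of 28 genes of the type 2 lineage, 3 fell: Notch2 (-1.43 ± 0.29), the complement factor properdin gene Cfp (-2.12 ± 0.33) and Il1r2. Of 28 pattern receptor genes, Tlr12 (-1.74 ± 0.34), the receptor for parasite profilin, and Nlrp3 (-1.85 ± 0.43), an inflammasome sensor, fell and none rose. The medians of the type 2 list (-0.38) and of the pattern receptors (-0.38) turned positive under quantile normalization or interquartile scaling, at up to 0.10 and 0.11. The median of the cDC1 list was -0.325, with 17 genes below 0 and 8 above. It stayed negative under each scaling, at -1.37 to -0.191. Signalling genes that fell included Dapk2, a death-associated kinase gene at -0.13, 0.16 and 0.02 in GFP-plus DCs, against 4.20, 3.39 and 5.42 in GFP-minus DCs (-4.32 ± 0.35). Pik3cg, the leukocyte phosphoinositide kinase gene, changed by -2.57 ± 0.27. Gpr183, the oxysterol receptor that positions DCs in tissue, changed by -1.93 ± 0.43 and Cxcr2 by -0.58 ± 0.12, the 2 calls of 28 chemokine receptor and homing genes.

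Each list of markers of other cells had at most 3 calls, beside 0.325% of all genes called higher and 1.26% called lower. The array means of several of these lists did not overlap. Of 47 enterocyte genes 1 was called, Fabp6, the ileal bile acid carrier, at 2.06, 0.57 and 2.89 in GFP-plus DCs, against -2.18, -1.82 and -2.27 in GFP-minus DCs. The mean of that list was 0.26 on each GFP-plus array and -0.08 to 0.06 on GFP-minus arrays. At an unadjusted p under 0.05, 9 of its genes were higher and 3 lower, beside 5.37% and 10% of all genes. Of 30 secretory and crypt genes 1 was called, the Paneth cell peptide gene Defa24, with list means of 0.31 to 0.58 on GFP-plus arrays and -0.21 to 0.11 on GFP-minus arrays. Of 28 macrophage genes 3 were called lower, which is 10.7%: Ms4a7 (-2.38 ± 0.16), C1qa (-1.53 ± 0.35) and Lyz2 (-0.92 ± 0.20). At an unadjusted p under 0.05, 13 macrophage genes were lower and 1 higher, beside 10% and 5.37% of all genes. C1qa was at -6.55, -6.29 and -6.12 in GFP-plus DCs, against -5.90, -3.79 and -4.67 in GFP-minus DCs, and its change turned positive (0.60) under interquartile scaling. The macrophage list's mean was -3.45 to -3.20 on GFP-plus arrays and -3.11 to -2.56 on GFP-minus arrays, and its median change of -0.47 turned positive under quantile normalization and interquartile scaling (up to 0.69). Of 19 B and plasma cell genes Ighm was called lower (-2.00 ± 0.44), with list means of -0.62 to -0.48 on GFP-plus arrays and -0.06 to 0.20 on GFP-minus arrays. Igkv6-14, a kappa light chain segment, changed by -3.43 ± 0.40, and all 14 kappa genes had a median of -1.63. Of 27 T and innate lymphocyte genes Gzma, a cytotoxic granule protease gene, changed by -3.88 ± 0.47, with list means of -0.23 to -0.07 on GFP-plus arrays and 0.06 to 0.50 on GFP-minus arrays. Of 26 monocyte and neutrophil genes Cxcr2 was called lower and 7 were lower at an unadjusted p under 0.05, with list means of -0.81 to -0.46 on GFP-plus arrays and -0.45 to -0.21 on GFP-minus arrays. None of 16 mast cell and basophil genes, 26 stromal and endothelial genes or 4 erythroid genes was called in limma; at an unadjusted p under 0.05 the stromal and the erythroid list had 1 gene higher each. The part of RNA from such cells in the changes above was not tested.

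Probes whose sequence belongs to several symbols were tested among all 33793 probes, of which 399 (1.18%) were called, 0.296% higher and 0.885% lower. Of 1814 such probes 29 were called (1.6%), 15 higher (0.827%) and 14 lower (0.772%), and their median change was -0.02. Under quantile normalization 11 were higher and 1 lower, and under scaling to equal interquartile ranges 12 and 5. The largest rise was on a probe for Defa17, Defa2 and Defa3, alpha-defensins of Paneth cells, at 5.38, 6.24 and 5.64 in GFP-plus DCs, against -0.69, -0.12 and 0.26 in GFP-minus DCs. All 9 shared alpha-defensin probes were above 0 and 6 were called, but 2 of the called probes, with the same 5 symbols, carried almost equal values on every array (GFP-plus replicate 2 at 2.91 and 2.88), and several probes name the same genes, so they are not independent.

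A probe for AA467197 and Mir147 gave the largest rise among the shared probes outside the defensins. AA467197 is a small mitochondrial protein gene induced in activated myeloid cells, and its transcript also yields the microRNA. The probe was at 3.92, 3.18 and 2.76 in GFP-plus DCs, against -0.57, -0.12 and 0.32 in GFP-minus DCs, a rise of 3.41 (adjusted p = 0.00657). The value belongs to the shared transcript and does not measure the mature microRNA. The same holds for 2 microRNA loci with probes of their own: Mir692-1 rose by 0.82 ± 0.15 and Mir135b changed by -1.40 ± 0.28. These were the only calls of 483 microRNA genes, which is 0.414%, beside 1.58% of all genes. For each locus 1 mature sequence from RefSeq (GRCm38.p6) is shown, the arm being in its name for miR-147 and miR-135b, with the seed, bases 2 to 8, in capitals. Other arms of these loci are not shown, and no 2 of the seeds printed are the same.
mmu-miR-147-5p: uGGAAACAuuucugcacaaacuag
mmu-miR-692: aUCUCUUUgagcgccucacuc
mmu-miR-135b-3p: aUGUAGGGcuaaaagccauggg

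Other shared probes gave small, tight rises. A probe for the nonclassical class I genes H2-Q7, H2-Q9 and H2-Q8 was at 0.50, 0.79 and 0.36 in GFP-plus DCs, against -0.54, -0.41 and -0.57 in GFP-minus DCs, a rise of 1.05. The probe for Bcl2a1b and Bcl2a1a, survival genes induced by NF-kB, rose by 0.74, and the separate probe of Bcl2a1a changed by 0.71 ± 0.19 (adjusted p = 0.0765). All 6 probes that include the ferritin light chain gene Ftl1 or its pseudogenes were above 0, and 4 of them were called at 0.42 to 0.60. A pair of the called probes, with the same 3 symbols, carried almost equal values on every array (GFP-plus replicate 1 at -0.25 on each). The ferritin probes are therefore not independent. Ferritin stores iron, and the active gene cannot be told apart from its pseudogenes on these probes.

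Falls on shared probes touched some of the same processes. The probe for Ncapg, a condensin gene, and Lcorl was at 0.02, 0.15 and -0.64 in GFP-plus DCs, against 2.10, 1.56 and 1.40 in GFP-minus DCs (-1.84), while the separate Lcorl probe changed by -0.60 ± 0.64. Both probes of Spdya and Trmt61b, a cell cycle regulator and a transfer RNA methyltransferase, passed the test, with changes of -2.12 and -2.50. The probe of Rfc4, a replication clamp loader gene, and Eif4a2 changed by -1.53. Eif4a2 without shared probes changed by -0.525 ± 0.223 and was not called in limma (adjusted p = 0.2725). A probe of Jaml, a leukocyte adhesion gene, and Gm10684 changed by -2.45, and one of Pdia4, an endoplasmic reticulum chaperone gene, and Mir704 by -1.49. The lowest was a probe of Ighv1-54, Igkv1-135 and Ighm, at 1.07, -1.45 and -3.03 in GFP-plus DCs, against 2.24, 2.64 and 2.44 in GFP-minus DCs.

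**Figure D4:**
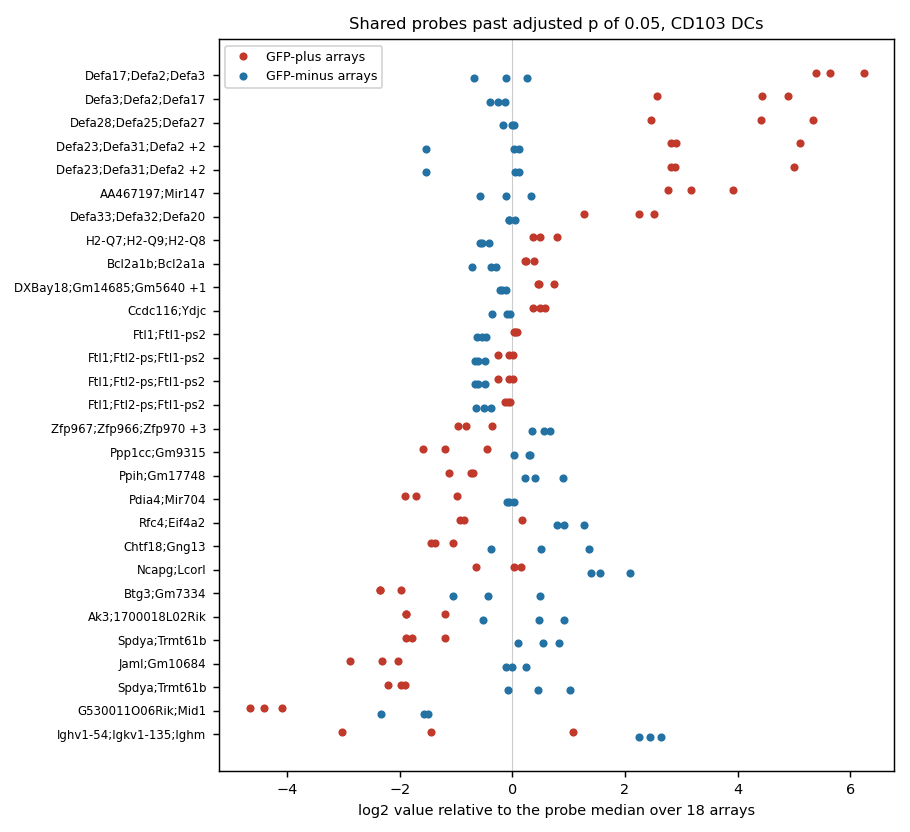
Log2 values (horizontal axis, relative to the probe median over 18 arrays) of the 29 called probes with several symbols on the GFP-plus and GFP-minus CD103 DC arrays; a plus sign and number stand for further symbols. The 15 probes higher in GFP-plus DCs are at the top, led by alpha-defensins near 6, and the 14 lower ones at the bottom.

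Receptor families with no known role in DCs had few calls, at shares on either side of that of all genes. Genes called higher were 0.181% of olfactory and 0.692% of vomeronasal receptor genes, beside 0.325% of all genes, and none was called lower. At an unadjusted p under 0.05, 68 olfactory genes were higher and 16 lower. Of vomeronasal genes 21 were higher and 3 lower, beside 5.37% and 10% of all genes. Olfactory receptor genes had a median change of 0.05 over 1105 genes with an SD of 0.23, and 2 were called, both higher. Olfr1252 was at 0.42, 0.23 and 0.36 in GFP-plus DCs, against -0.10, -0.06 and -0.02 in GFP-minus DCs. Of 289 vomeronasal receptor genes 2 were called higher, Vmn1r80 by 1.19 ± 0.22 and Vmn2r106 by 0.80 ± 0.17. Defb29, a beta-defensin gene, rose by 0.85 ± 0.18. Of 8458 probes without a gene symbol, 59 (0.698%) were called.

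Many of the DC changes differed from those between GFP-plus and GFP-minus macrophages. The GFP effect in DCs minus the mean effect of both macrophage gates was tested in the same fit, and 295 of 22180 genes passed (1.33%), 40 with a positive difference (0.18%) and 255 with a negative one (1.15%). Under quantile normalization these were 16 and 34. Of the 351 genes called in DCs 186 passed, which is 25 of 72 risen and 161 of 279 fallen genes. These genes were called on the same DC arrays that enter the difference, so this share is a description. Ccl17 had the widest gap among the rises, with changes of 2.85 in DCs, -1.70 in macrophages with CD103 and -2.23 in those without (difference 4.81, adjusted p = 0.0012). Gclc changed by 3.81 in DCs, against -0.16 and 0.72 in the macrophages (difference 3.53, adjusted p = 0.00222), and Cd63 by 2.52 against 0.38 and 0.62 (difference 2.02). For Ms4a7 the DC change was -2.38, against 0.27 and 0.44. The division genes Haspin, Kif11, Nusap1, Cenpe, Bub1, Cdc45 and E2f8 also passed, as did Trit1, Dkc1, Mbtps2 and Ggps1. Cd274 did not: it changed by 1.64 in DCs, 0.79 and 0.83 in macrophages (difference 0.83, adjusted p = 0.298). Nor did Pfkfb3 (difference 1.51, adjusted p = 0.0685) or Relb (difference 0.92, adjusted p = 0.214).

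**Figure D5:**
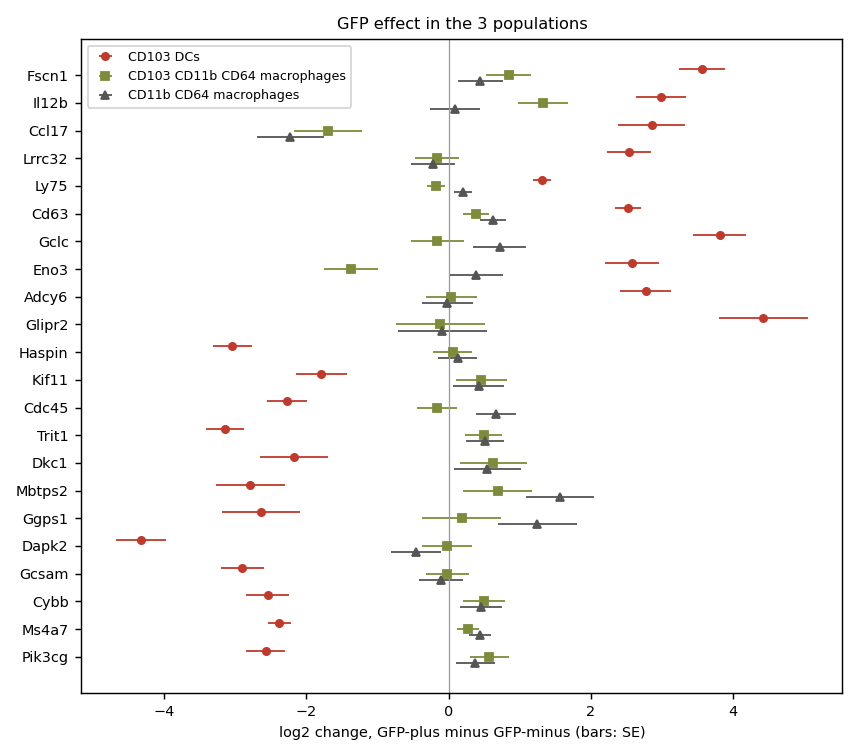
Log2 change with SE (horizontal axis), GFP-plus minus GFP-minus, of 22 named genes in CD103 DCs, in CD103 CD11b CD64 macrophages and in CD11b CD64 macrophages, 3 arrays a group. All 22 were called in DCs and passed the test of the difference from macrophages. DC values away from 0 and macrophage values nearer to it therefore follow from the choice of genes. Called genes that did not pass the difference, such as Cd274 and Pfkfb3, are not drawn. Ccl17 lies below 0 in both macrophage gates.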

How the data were processed

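The deposited table holds log2 values of 33793 probes on 18 arrays, made by the authors and centred on each probe's median; the base was inferred from a largest probe span of 10.15. How the authors corrected background and normalized is not given in the sources used. Per the labels' protocols, the NuGEN WT Ovation Pico kit amplified 1 ng of RNA, whose bias cannot be seen in these values. Probes with 1 symbol in the supplied annotation (23521) were averaged into 22180 genes, of which 21994 matched RefSeq; 1814 probes had several symbols and 8458 none. Limma 3.58.1 (R 4.3.3) fitted 6 group means to 18 arrays, with 12 residual and 2.089 prior degrees of freedom and two-sided Benjamini-Hochberg adjusted p-values. Only the number of arrays, 3 a group, limits precision that can be stated, since centring removed the signal level. The fit was checked on simulated data with planted changes. Alternatives changed the arrays fitted, the scaling, the weights, the prior variance, the block, the threshold and the probe summary. The gene lists and the comparison were chosen with earlier results of these data known. Named genes are the largest rises and falls, list members past the threshold and list members of smallest p; 28 others, such as Relb, Hmmr, Mtor, Pik3cg and the receptor genes of other organs, were chosen after their values were seen. Promoters and microRNAs are RefSeq's.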

Additional observations from a re-analysis of the deposited data

Results flagged for a closer look

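For the genes below, the change between GFP-plus and GFP-minus cells in DCs minus the mean change in both macrophage gates passed an adjusted p of 0.05 in limma, and so did the change in DCs. The differences are log2. Of maturation and ligand genes, the difference was 4.81 for Ccl17, 3.29 for Nudt17, 2.92 for Fscn1, 2.72 for Lrrc32, 2.28 for Il12b and 0.90 for Sqstm1. Of uptake, metabolic and signalling genes it was 4.53 for Glipr2, 3.53 for Gclc, 3.07 for Eno3, 2.77 for Adcy6, 2.13 for Myo1g, 2.02 for Cd63 and 1.30 for Ly75. Among other rises it was 3.83 for Defa24, 2.13 for Rprl2, 0.97 for Defb29 and 0.92 for Vmn2r106. Of division genes it was -3.21 for Nusap1, -3.13 for Haspin, -2.52 for Cdc45, -2.23 for Kif11, -2.12 for Cenpe, -1.85 for E2f8, -1.63 for Hmmr and -1.50 for Bub1. Of RNA processing and translation genes it was -3.64 for Trit1, -2.81 for Mrpl3, -2.76 for Dkc1, -2.36 for Polr1a and -1.29 for Pus3. The zinc finger gene Zfp367 differed by -3.13. The nuclear transport genes Tnpo3 and Rae1 differed by -3.19 and -2.65, and the nucleosome binding gene Hmgn5 by -4.00. Of lipid and glycan genes the difference was -3.92 for Mbtps2, -3.36 for Ggps1, -3.10 for Alg5, -2.35 for Mbtps1, -2.00 for Lipa and -1.76 for Lpcat3. Of lineage, sensing and signalling genes it was -4.08 for Dapk2, -3.05 for Il1a, -3.04 for Pik3cg, -3.02 for Cybb, -3.01 for Rab7b, -2.84 for Gcsam, -2.74 for Ms4a7, -2.64 for Tgfbr2, -1.99 for Tlr12, -1.94 for Cfp, -1.78 for Notch2, -1.66 for Fos, -0.68 for Cdc42 and -0.66 for Cxcr2. The lymphocyte genes Igkv6-14 and Gzma differed by -3.70 and -3.08.

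Of the 8458 probes without a gene symbol, 59 (0.698%) passed in DCs, 23 higher and 36 lower, in data that the gene comparisons leave out.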

How the results depend on the processing

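Of the 351 called genes, 346 kept their direction under 14 alternatives of arrays, scaling, weights, prior variance or block (treat and the pair left out together aside) and 18 were called under each of them; Defa24, Gclc, Fscn1, Il12b, Lrrc32, Cd63 and Pfkfb3 were the 7 that rose. The count of 351 became 85 when only DC arrays were fitted, 48 with quantile normalization, 197 with equal interquartile ranges, 208 with a replicate block, 34 with treat at a fold of 1.5, 62 at an adjusted p of 0.01 and 774 at 0.1. Without GFP-plus replicates 1 and 3, chosen after seeing the data, it was 116. It ran from 118 to 711 when 1 array was left out, lowest without GFP-minus replicate 2 (118) and replicate 3 (122) and highest without GFP-plus replicate 2. The 29 shared probes became 3 with DC arrays alone, 12 with quantile normalization, 17 with equal interquartile ranges, 13 with a replicate block, 6 with treat, 15 without GFP-plus replicates 1 and 3, and 12 to 54 with 1 array left out. The 295 genes of the difference from macrophages became 50 with quantile normalization, 133 with equal interquartile ranges, 681 with array weights, 43 with treat, 100 without GFP-plus replicates 1 and 3, and 122 to 687 with 1 array left out; with a replicate block it was 247. DC arrays alone cannot give this difference. The split of higher and lower calls moved from 72 and 279 to 24 and 24 with quantile normalization. Same-numbered arrays deviated together at r = 0.096, 0.069 and 0.003 over genes, all under 0.1, so the numbers were not treated as pairs, although 5 of 6 arrays correlated best with their own number, a hint from the data only. Directions turned under equal interquartile ranges for Ly75 (-0.57), Aldh1a2 (-0.38), C1qa (0.60), Itgam (1.01) and Fcgr1 (1.40), and under quantile normalization for Itgam (0.047) and Fcgr1 (0.37); dividing centred values by a column's range moves genes far from 0 by construction. Over the named genes and 16 alternatives, 668 values lost their call, 31 gained one and 1294 kept their side. Fits that leave out a DC array assume a common spread. Signal over background was removed by centring, so calls on dim probes cannot be set apart.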
